A study of Mus musculus with 121 samples.

Results

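The cytosolic ribosomal protein genes are the 76 protein-coding mouse genes whose symbol is Rpl or Rps followed by a number, with an optional letter or x, together with Rplp0, Rplp1, Rplp2 and Rpsa. Pseudogenes, the Rps6k kinases and the -like genes were left out by this rule, which uses symbols and not measured values. All 76 genes reached 1 CPM (counts scaled to the total of the library) in at least 3 libraries and so belonged to the 13292 genes tested of 31053 listed. Of the 76, 30 encode proteins of the small (40S) and 46 of the large (60S) ribosomal subunit.

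The libraries came from Per2::Luc fibroblasts, a single line of mouse cells at passage 25 that carries a luciferase knock-in at the circadian clock gene Per2. All cells received 3 cycles of 24 h in a microfluidic culture. In HL, 12 h of a rich H medium (25 mM glucose with insulin) alternated with 12 h of a poor L medium (2 mM glucose), LH had the opposite order, and HH had H medium renewed at the same hours. After 12 h without stimulation RNA was collected at 6 times 4 h apart, written here as 0 to 20 h, and sequenced by 3′DGE, a method that counts reads from the 3′ end of mRNAs. These times follow the collection number in the titles, since the clock hours there do not all run in steps of 4 h. In order of collection they are 20, 12, 4, 8, 12 and 16 in HH and HL, and 20, 12, 16, 20, 12 and 16 in LH.

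The treatments had 21 (HL), 22 (LH) and 19 (HH) libraries, 62 in all, and each collection of a treatment had 2 to 4. Libraries had 104912 to 11619095 counts (median 5825880), and 61 of the 62 had at least 2136819. The methods of the study call its replicates biological, but the labels do not tie libraries to cultures, so the tests measure the spread between libraries. The 10 fibroblast markers all had a mean of at least 1 CPM, with a summed level of 9861 to 38620 CPM in HL, 13863 to 36038 in LH and 15344 to 37379 in HH. Of 18 markers of other cell types Kdr, Cd68 and Ptprc reached a mean of 1 CPM, with a summed level of all 18 of 40.3 to 240.1 CPM in HL, 27.5 to 254.4 in LH and 149.7 to 280.9 in HH. Most of it was Kdr, an endothelial receptor, with a mean of 172 CPM (20.3 to 269.7), above the fibroblast markers Thy1 (87.6), Pdgfrb (35.2) and Lum (18.5). Tyr, Myod1 and Krt5 had no count in any library.

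A limit applies to every comparison that involves HL or LH. Treatments and collections were taken from the sample titles, but the read summary of the study ties 35 of the 62 library numbers to another treatment or collection and does not list 5 more, and it names no library of HH differently. The 40 together are all LH libraries and all HL libraries outside the first collection. Most HL libraries of the titles are LH by number and most LH libraries are HL, so LH minus HL tends to change sign between the assignments. Results for HL and LH are therefore given by titles and, beside them, by library numbers, where 57 libraries (19 for each treatment) and 13198 genes could be used. Which assignment is right was not tested here.

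Ribosomal proteins join ribosomal RNA in the nucleolus to form the subunits that translate mRNA. The small subunit reads the codons and the large subunit joins the amino acids. Apart from the stalk proteins Rplp1 and Rplp2, of which each large subunit carries more, the subunits need the proteins in equal numbers, and most ribosomal protein mRNAs begin with a C followed by a run of pyrimidines, the 5′ terminal oligopyrimidine tract, through which mTORC1 and Larp1 adjust their translation and stability to nutrients and insulin. This control acts largely on translation, which counts of RNA do not measure. In bulk RNA a smaller number of cells of a type and less RNA per cell cannot be told apart.

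The start of the transcript is shown for members that later results turn on, since that is where the tract lies. Each line holds 10 bases before and 20 bases from the start that RefSeq annotates on GRCm38.p6, 5′ to 3′, with the run of pyrimidines that begins at the start in capitals.
Rps6 (chr4:86857348-86857377, minus strand): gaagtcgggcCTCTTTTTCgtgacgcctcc
Rpl15 (chr14:18270967-18270996, minus strand): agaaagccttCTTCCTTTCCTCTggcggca
Rpl35 (chr2:39005112-39005141, minus strand): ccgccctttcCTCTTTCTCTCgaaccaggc
Rps18 (chr17:33955646-33955675, minus strand): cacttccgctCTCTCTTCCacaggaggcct
Rpl14 (chr9:120571507-120571536, plus strand): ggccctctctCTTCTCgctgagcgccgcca
Rplp2 (chr7:141447641-141447670, plus strand): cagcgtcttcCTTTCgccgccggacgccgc
Rpl13 (chr8:123102340-123102369, plus strand): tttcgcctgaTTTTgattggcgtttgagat
Rpl23 (chr11:97782420-97782449, minus strand): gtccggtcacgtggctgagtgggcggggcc
Rps23 (chr13:90923112-90923141, plus strand): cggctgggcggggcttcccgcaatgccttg
Rpl26 (chr11:68901556-68901585, plus strand): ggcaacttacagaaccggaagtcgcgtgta

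The first 6 sequences begin with C and a run of at least 5 pyrimidines, counting the C, on the sense strand. Such a run stood exactly at an annotated start in 13 of the 56 members with a RefSeq entry (23.2%) and in 813 of 27025 genes (3.0%). Within 5 bases of the start the numbers were 27 of 56 members (48.2%) and 21.2% of all genes. An annotated start can lie some bases from the one cells use, so the sequences of Rpl13, Rpl23, Rps23 and Rpl26, in which no such run stands at the annotated start, show only what these windows hold. The 13 members with the run had a median level of 344 CPM and the 43 without it 468 CPM.

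Ribosomal protein mRNAs were abundant. Over all libraries the 76 genes had a median of 472 CPM (mean of each gene over the libraries), against 15.5 CPM for the median of all genes tested, and together they took a median of 5.14% of the counts of a library, 2.38% by the 40S and 2.76% by the 60S genes. Counts of 3′ ends do not grow with the length of an mRNA, but reads that also match another place in the genome were not counted, which can lower genes with many processed copies.

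The highest levels belonged to Rplp1, an acidic protein of the stalk that recruits translation factors, with 4405 ± 696 CPM (SD, n = 62). Rps20 followed at 3195 ± 506, Rps26 at 2370 ± 314, Rps12 at 1989 ± 473 and Rps14 at 1733 ± 380 CPM (SD, n = 62 each). Rplp1 and Rps20, and Rps20 and Rps26, differed by slightly more than the sum of their SDs, and the next neighbours in this order by less. Apart from Rplp1 these are proteins of the small subunit.

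At the other end stood Rps6, the substrate of the S6 kinases downstream of insulin, with 16.9 ± 5.75 CPM (SD, n = 62). Rpl10a had 33.8 ± 9.99, Rpl15 37.6 ± 11.4, Rpl35a 38.3 ± 17.0 and Rpl29 49.1 ± 15.6 CPM (SD, n = 62 each), and Rpl29 had no count in the shallowest library. For Rps6, 86.5% of the windows of 90 bases in its last 400 bases also occurred in a transcript of another gene, and the values were 89.7% for Rpl10a, 83.6% for Rpl15, 49.2% for Rpl35a and 56.6% for Rpl29. The 37 members with more than 50% of such windows had a median of 344 CPM, the 22 with more than 1% and up to 50% had 689 CPM and the 17 with at most 1% had 490 CPM. Levels were not low in every member of the first group, since Rps12 had 100% of its windows in another gene and was still among the 5 highest. How much of a gene's reads was lost in this way was not tested.

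Members known for roles beyond the ribosome lay inside this range. Rpl5 and Rpl11, which with 5S rRNA bind the p53 regulator Mdm2, had 86.1 ± 23.8 and 503 ± 102 CPM. Rpsa, also known as the laminin receptor precursor, had 824 ± 114 CPM. The stalk proteins Rplp0 and Rplp2 had 904 ± 228.8 and 1545 ± 188 CPM (SD, n = 62 each). Rpl13a, which can leave the ribosome to silence inflammatory mRNAs, had 107 ± 23.4 CPM, as did Rps27a with 107 ± 46.0 CPM, whose product is made as a fusion with ubiquitin. Rpl41, the smallest ribosomal protein, had 470 ± 81.5 CPM (SD, n = 62 each).

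**Figure D1:**
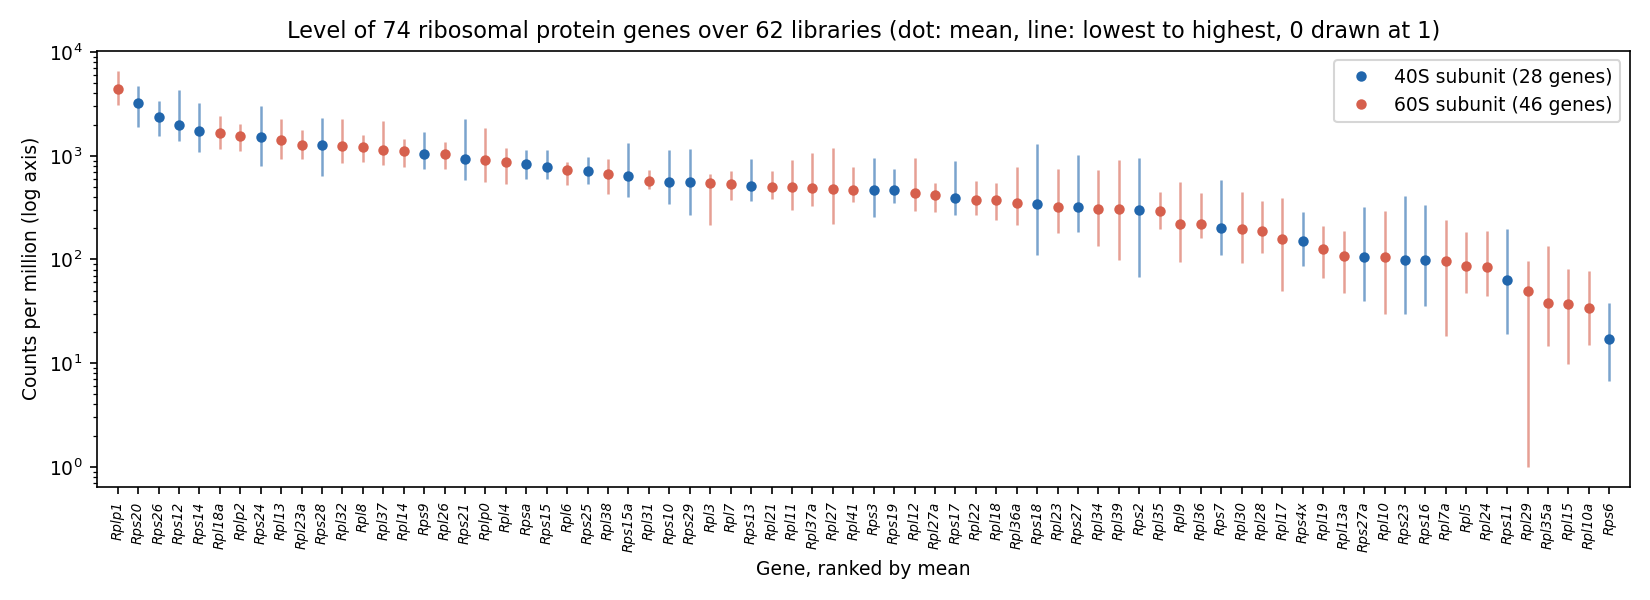
Level of 74 ribosomal protein genes in CPM on a log axis, ranked by the mean over 62 libraries. Dots are means, lines run from the lowest to the highest library, blue is the 40S and red the 60S subunit, and a lowest value of 0 (Rpl29) is drawn at 1. Means run from 4405 CPM for Rplp1 to 16.9 CPM for Rps6, and both subunits are spread over the whole range.

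The spread between libraries was unequal. The coefficient of variation over the 62 libraries was 9.56% for Rpl6 and 10.1% for Rpl31, and 45.5% for Rps16, 48.4% for Rps18 and 51.3% for Rps23, a protein of the decoding centre. Without the 3 libraries described below as standing apart it was 9.54% for Rpl6, 8.73% for Rpl31, 29% for Rps16, 29.4% for Rps18 and 31.2% for Rps23.

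Most members rose and fell together from library to library. The correlation of a member's log2 CPM with the summed CPM of the other members, over 62 libraries that share treatments and collections, had a median of 0.757, or 0.674 over the 59 libraries left without those 3. It was highest for Rpl12, a protein at the base of the stalk (0.919), for Rps15a (0.907) and for Rplp0 (0.899). It was lowest for Rpl4, which lines the exit tunnel (-0.15), for Rpl14 (0.0097) and for Rps20 (0.043). Without the 3 libraries the same genes were highest (0.893, 0.850 and 0.844) and lowest (0.021, 0.203 and 0.036). Rpl4, Rpl14 and Rps20 thus did not follow the other members, although Rps20 had the second highest level. None of the 3 had a window shared with another gene in the annotated transcript searched. For Rps20 that transcript had 3706 bases, the longest of the members, and whether its reads came from that 3′ end was not tested. Over the 2850 pairs of members the median correlation was 0.588 and 2471 pairs were above 0, with a range from -0.58 to 0.961. Without the 3 libraries the median was 0.535.

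Few other genes followed the members as closely. Of 6470 other genes with a mean of at least 16 CPM, 218 had a correlation of at least 0.6 with the summed members, against 59 of the 76 members, and 24 reached that of the median member. Without the 3 libraries 104 other genes and 51 members reached 0.6, and 37 reached the median member, then at 0.674. Over all libraries the most alike were Eef1b2 (0.895), a factor that recharges the elongation factor eEF1A, the initiation factor subunit Eif3i (0.886) and Hint1 (0.878), then Atp5e (0.853), Rack1 (0.847), a protein bound to the 40S subunit, Ndufb2 (0.832) and Tpt1 (0.822). Without the 3 libraries Eef1b2 had 0.907, Eif3i 0.843, Hint1 0.794, Atp5e 0.783, Rack1 0.776, Ndufb2 0.770 and Tpt1 0.719. Their median correlation by list was 0.644 for 3 ribosomal proteins whose symbols fall outside the rule, among them Fau and Rps3a1. It was 0.681 for the 5 -like genes tested, 0.372 for 18 other mRNAs with a pyrimidine tract and 0.172 for 31 translation factors. For 52 ribosome biogenesis genes it was -0.055, about the level of all other genes (-0.0063). The correlations are descriptions over libraries that also differ in other ways.

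One such way was the length of the mRNAs. Members are short, with a median transcript of 705 bases (at most 3706), and 59 of 76 lie below 1000 bases. Among the other genes the median correlation with the summed members was 0.407 below 600 bases (92 genes), 0.312 from 600 to 1000 (355 genes), 0.161 from 1000 to 2000 (1341 genes), 0.015 from 2000 to 4000 (2473 genes) and -0.20 from 4000 bases on (2178 genes). The 217 other genes with a correlation of at least 0.6 and a known length had a median of 1220 bases, against 3014 bases for all other genes. Members were above other genes of the same length in each class, with medians of 0.811 (28 members), 0.720 (31), 0.733 (15) and 0.370 (2 members).

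A measure of each library was therefore formed from genes that are not members, as the median log2 deviation of 447 genes below 1000 bases minus that of 3242 genes of at least 3000 bases. The share of counts on members followed it with Pearson's r = 0.8998 and Spearman's rho = 0.871 over the 62 libraries, which is a description with no test, since the measure was chosen for the pattern by length in the same libraries. Without the 2 libraries farthest from the median r was 0.855, and within HL, LH and HH by titles it was 0.772, 0.889 and 0.969. The number of non-unique alignments per gene count followed the share with r = 0.724 and rho = 0.697, also with no test, since the members' own reads are among the non-unique ones. Its r was 0.647 without the 2 farthest libraries, and within HL, LH and HH it was 0.452, 0.733 and 0.803. For the share of mitochondrial genes r was 0.462 and rho 0.456 (permutation p = 0.00031 and 0.00024 over libraries that share collections, 0.000413 and 0.00032 after adjustment over the 4 relations computed), with r = 0.353 without the 2 farthest libraries. Within HL, LH and HH its r was 0.460, 0.477 and 0.487 and its rho 0.439, 0.055 and 0.688. Total counts gave r = -0.15 and rho = -0.053 (permutation p = 0.24 and 0.685). The part of length and of non-unique reads in the members' differences between collections was not tested beyond the fits that hold the length measure as a covariate, which are given beside the results below.

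**Figure D2:**
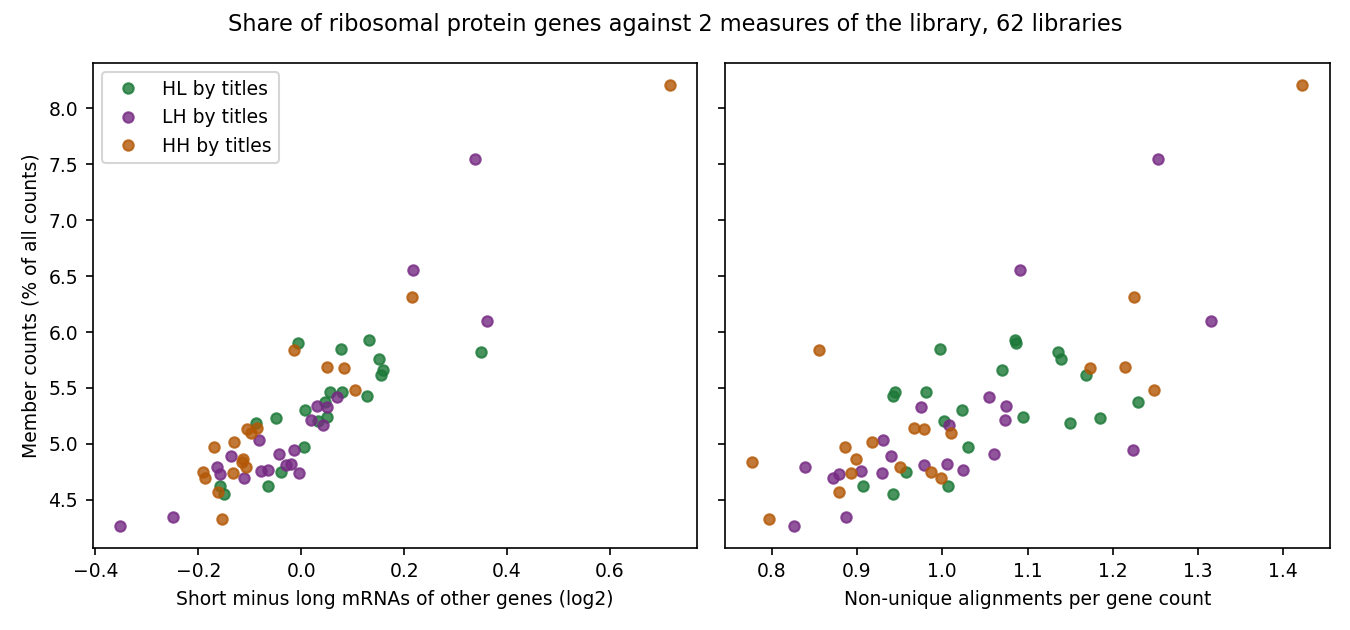
Share of counts on the 76 members (vertical axis, percent of all counts of a library) against the short-minus-long measure of other genes (left, log2) and the number of non-unique alignments per gene count (right), 1 dot per library, coloured by treatment as the titles give it. The share follows both measures (r = 0.8998 and 0.724, n = 62), and the library at the top right of both panels is HH collection 6, replicate 3.

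The members took 5.33 ± 0.431% of the counts in HL (n = 21, 4.56% to 5.93%), 5.15 ± 0.742% in LH (n = 22, 4.27% to 7.54%) and 5.27 ± 0.865% in HH (n = 19, 4.33% to 8.21%, SD in each case). By library numbers HL had 5.18 ± 0.502% and LH 5.14 ± 0.523% (SD, n = 19 each). The 3 treatments overlapped almost wholly, so the spread of the members lay within treatments.

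2 libraries stood apart from the rest, with the highest shares. In HH collection 6, replicate 3, the share was 8.21%, and 70 of 76 members were higher than in the other 3 libraries of that collection, with a median difference of 0.81 on the log2(CPM + 1) scale. Rps23 was highest (1.85) and Rpl4 lowest (-0.73). Among genes that are not members the short ones were higher by a median of 0.41 there and the long ones lower by 0.44. In LH collection 2, replicate 4, by titles, the share was 7.54%, and 74 of 76 members were above the 1 other deep library, by a median of 0.95. That other library had a share of 4.35%. In replicate 4 the short genes that are not members were also higher, by a median of 0.78, and the long ones by 0.17. The third library that stood apart, LH collection 2, replicate 2, had 104912 counts. The main results that rest on these 3 libraries are given with and without them.

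HH is the treatment whose libraries have the same names in both assignments. At its first collection the members took 5.69%, 5.67%, 5.48% and 6.31% of the counts. At 4 h the shares were 4.33%, 4.74% and 4.84%, at 8 h 4.69%, 5.15% and 5.02%, at 12 h 5.09% and 4.57%, and at 16 h 4.79%, 4.86% and 5.14%. All 4 libraries of 0 h thus lay above all 11 libraries of 4 to 16 h. At 20 h the shares were 4.97%, 5.84%, 8.21% and 4.75%. This spread was wider than that of all other collections together (4.33% to 6.31%), though it did not reach their lowest share.

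**Figure D3:**
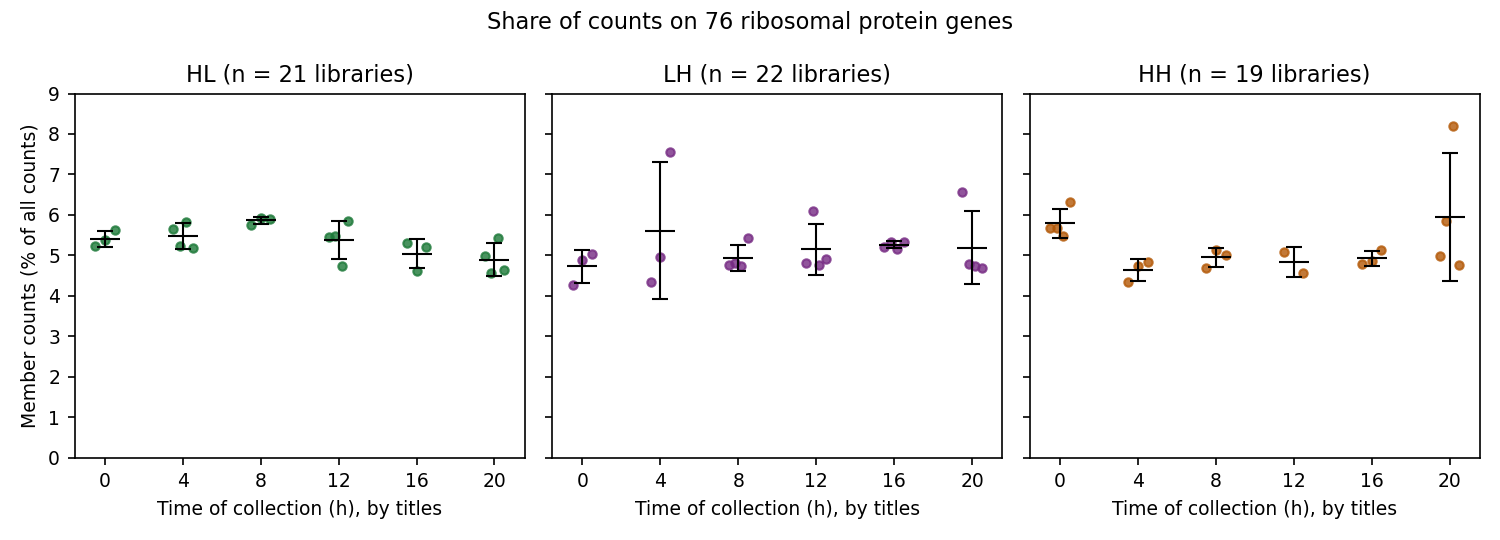
Share of counts on the 76 members (percent of all counts) by collection time in h, for HL, LH and HH by titles. Dots are libraries, and horizontal bars with whiskers are mean ± SD of each collection. In HH the 4 libraries at 0 h (5.48% to 6.31%) lie above those at 4 to 16 h (4.33% to 5.15%), and 1 library at 20 h reaches 8.21%.

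The rise at 0 h in HH was broad and small. This contrast was chosen after the values were seen and is given without a test. The mean of 0 h was above that of 4 to 16 h for 75 of 76 members, Rpl4 being the exception, with a median difference of 0.25 on the log2(CPM + 1) scale (-0.08 to 0.58), whereas over all genes the median was 0.02 and 52.4% were above 0. For 20 members (26.3%) each of the 4 libraries at 0 h was above each of the 11 later ones, against 1.32% of all genes. No member was below them throughout, against 1.29% of all genes. The 20 were 7 of the 60S subunit without the stalk, namely Rpl12, Rpl18, Rpl23a, Rpl27, Rpl27a, Rpl32 and Rpl38, the 3 stalk proteins Rplp0, Rplp1 and Rplp2, and 10 of the 40S subunit, namely Rps10, Rps12, Rps14, Rps15, Rps21, Rps24, Rps25, Rps28, Rps3 and Rpsa.

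Rplp1 had 5186 ± 419 CPM at 0 h (SD, n = 4) and 3996 ± 236.2 CPM at 4 to 16 h (SD, n = 11), a ratio of 1.30. Rplp0, the protein that anchors the stalk, had 1022 ± 62.1 against 778 ± 78.0 CPM, a ratio of 1.31. Rplp2 had 1780 ± 138 against 1458 ± 78.0 CPM, a ratio of 1.22. The members of the stalk were thus shifted by similar factors despite levels that differed severalfold.

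Rpl12 had 492, 511, 503 and 615 CPM at 0 h, then 360, 387 and 405 at 4 h, 360, 416 and 405 at 8 h, 424 and 369 at 12 h and 364, 396 and 387 at 16 h. The later libraries were close to each other and all below 0 h. At 20 h Rpl12 had 378, 559, 945 and 335 CPM, so that 2 libraries lay within or under the range of 16 h, 1 within that of 0 h and 1 above it. Rps28 had 1454, 1306, 1364 and 1542 CPM at 0 h and 818 to 1156 CPM in the 11 libraries of 4 to 16 h, then 1177, 1462, 2296 and 1201 CPM at 20 h. All 4 libraries of 20 h thus lay above the 11 of 4 to 16 h, which was not so for Rpl12.

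Other measures moved with the first collection of HH. The short-minus-long measure was 0.05 to 0.22 there and -0.19 to -0.09 in the 11 libraries of 4 to 16 h, and at 20 h it was -0.17, -0.01, 0.72 and -0.19, in the order of the shares above. The non-unique alignments per count were 1.22 ± 0.0314 at 0 h (SD, n = 4), against means of 0.822 to 0.961 at 4 to 16 h. The mitochondrial share was 3.02 ± 0.572% at 0 h, against means of 1.74% to 2.47% at those times. The members' rise at 0 h and the shift of short against long mRNAs cannot be told apart in these libraries.

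edgeR's quasi-likelihood test over the 6 collections, adjusted by Benjamini-Hochberg over all genes, called 2 members in HH, Rpl23 (adjusted p = 0.036) and Rps23, against 0.293% of all genes. At an unadjusted 0.01 it called 25 members (32.9%), against 2.92% of all genes, and at 0.05 it called 43 (56.6%), against 8.61%. Rpl23, a large-subunit protein that can bind Mdm2, had 305, 296, 274.2 and 326 CPM at 0 h and 214 to 393 CPM at 4 to 16 h, while at 20 h it had 365, 688, 745 and 240 CPM. Rps23 had 91.0, 96.8, 111 and 87.7 CPM at 0 h, 53.6 to 127 CPM at 4 to 16 h and 95.4, 237.3, 409 and 63.4 CPM at 20 h. For both genes replicates 2 and 3 of 20 h were higher than any other HH library, and replicate 4 was among the lowest.

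Without the 3 libraries that stood apart no member was called in HH by edgeR, against 0.34% of all genes, and Rpl23 had the smallest adjusted p (0.362). At an unadjusted 0.01 it called 0, against 2.85% of all genes, and at 0.05 it called 9 (11.8%), against 8.85%. With the short-minus-long measure as a covariate 1 member was called, Rpl23 (adjusted p = 0.046), against 0.564% of all genes, and 9 (11.8%) at an unadjusted 0.01, against 2.67%. DESeq2 on all libraries called 12 members (15.8%), against 1.19% of all genes. By library numbers, where HH has the same libraries but shares its spread with another set of HL and LH libraries, edgeR called 8, namely Rps18, Rps23, Rpl32, Rps7, Rpl17, Rpl23, Rpl36a and Rps27, against 0.803% of all genes, 36 at an unadjusted 0.01, against 3.8%, and 52 at 0.05, against 10.5%. Of the libraries that stood apart 1, HH collection 6, replicate 3, is among the 57. Without it the numbers gave 0 calls among the members, against 0.615% of all genes.

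The collection in which a member was highest moved in the same way. With all libraries 51 members (67.1%) had their highest HH mean at 20 h and 21 (27.6%) at 0 h, against 20.9% and 19.9% of all genes. Without the libraries that stood apart 45 members (59.2%) were highest at 0 h and 29 (38.2%) at 20 h, against 22.1% and 19.6% of all genes. The lowest mean fell at 4 h for 28 members and at 12 h for 29 with all libraries, against 20.2% and 21.8% of all genes. The median ratio of a member's highest to its lowest HH collection was 1.47 with all libraries and 1.35 without, against 1.35 and 1.33 for genes with at least 16 CPM.

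In HL by titles the members' share was highest at 8 h and lowest at 20 h. The mean share was 5.41% at 0 h, 5.48% at 4 h, 5.86% at 8 h, 5.38% at 12 h, 5.05% at 16 h and 4.90% at 20 h. Of the 76 members 42 (55.3%) had their highest mean at 8 h, against 23.1% of all genes, and 55 (72.4%) their lowest at 20 h, against 27.5%. At 8 h 73 members were above their own mean, with a median log2 deviation of 0.147, against 0.055 for all genes. The shares of 8 h (5.76% to 5.93%) did not overlap those of 20 h (4.56% to 5.43%). This contrast, too, was chosen after the values were seen. The mitochondrial share was 3.07% at 8 h and 1.83% and 1.90% at 16 and 20 h, and the short-minus-long measure was 0.09, -0.04 and -0.02 at these times (means). Between the libraries of 4 h, where the members' share was lower than at 8 h, the latter measure ran from -0.09 to 0.35. The part of both measures in the members' course was not tested beyond the covariate, with which 0 members were called in HL as well, against 0.542% of all genes. No member was called over the collections by edgeR after adjustment, against 0.301% of all genes, 0 passed an unadjusted 0.01 (2.78% of all genes) or 0.05 (8.98%), and DESeq2 also called 0 (0.939%). The smallest adjusted p belonged to Rpl35a (0.659), and that of Rpl13a was 0.694.

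By library numbers the course of HL was another one. The mean shares were 5.41%, 4.77%, 5.45%, 5.05%, 5.69% and 4.74% from 0 to 20 h, and 45 members (59.2%) were highest at 16 h, against 15.1% of all genes. The 16 h mean holds 1 library with a share of 6.56%, and without it the share there was 5.25%, 4 members (5.26%) were highest at 16 h and 32 (42.1%) at 8 h, against 12.8% and 20.6% of all genes. edgeR called 0 members after adjustment, against 0.394% of all genes, 9 at an unadjusted 0.05 (11.8%, against 5.49% of all genes) and 2 at 0.01 (Rpl13 and Rpl32), against 1.88%.

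In LH by titles the mean shares were 4.73%, 5.61%, 4.94%, 5.15%, 5.26% and 5.19% from 0 to 20 h. 46 members (60.5%) had their lowest mean at 0 h, against 17.97% of all genes, and 41 (53.9%) their highest at 4 h, against 30.5%, the collection that holds the shallow library and the library with a share of 7.54%. Without these libraries, which leaves 1 at 4 h, the lowest mean fell at 4 h for 35 members and at 0 h for 32, against 59.5% and 12.1% of all genes. The highest then fell at 20 h for 46 (60.5%) and at 4 h for 3, against 12.7% and 22.3% of all genes. In the 20 h collection replicate 1 had a share of 6.56% and the others 4.69% to 4.79%, and without replicate 1 as well 26 members (34.2%) were highest at 20 h and 27 (35.5%) at 12 h, against 13.6% and 17.5% of all genes. With all libraries edgeR called no member after adjustment, against 2.93% of all genes, 14 (18.4%) at an unadjusted 0.05, against 16.9%, and 3 at 0.01, against 7.31%. The 3 were Rpl23 (adjusted p = 0.0601), Rpl35 (0.0876) and Rpl37 (0.109). DESeq2 called 4 members (5.26%), against 5.8% of all genes. Without the libraries that stood apart edgeR called 2, Rpl3 (adjusted p = 4.42e-05) and Rpl35 (0.0178), in a fit where 4 h has 1 library and 1976 of 13216 genes (15%) were called. With the covariate it called 14 (18.4%), among them Rpl37 (adjusted p = 0.0035), against 4.91% of all genes.

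With the library numbers LH had shares of 5.63%, 5.61%, 5.13%, 5.04%, 4.63% (1 library) and 4.64%. With all libraries the first collection of LH thus had the lowest mean share by titles, while by numbers it was level with 4 h. By titles without the libraries that stood apart, the 1 library left at 4 h was lower still, at 4.35%. By numbers 47 members (61.8%) were highest at 4 h and 20 (26.3%) at 0 h, against 27.7% and 19.8% of all genes. edgeR called 0 members after adjustment, against 1.05% of all genes, 11 at an unadjusted 0.05 (14.5%, against 14.3% of all genes) and 2 at 0.01 (Rps2 and Rps20), against 5.26%.

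**Figure D4:**
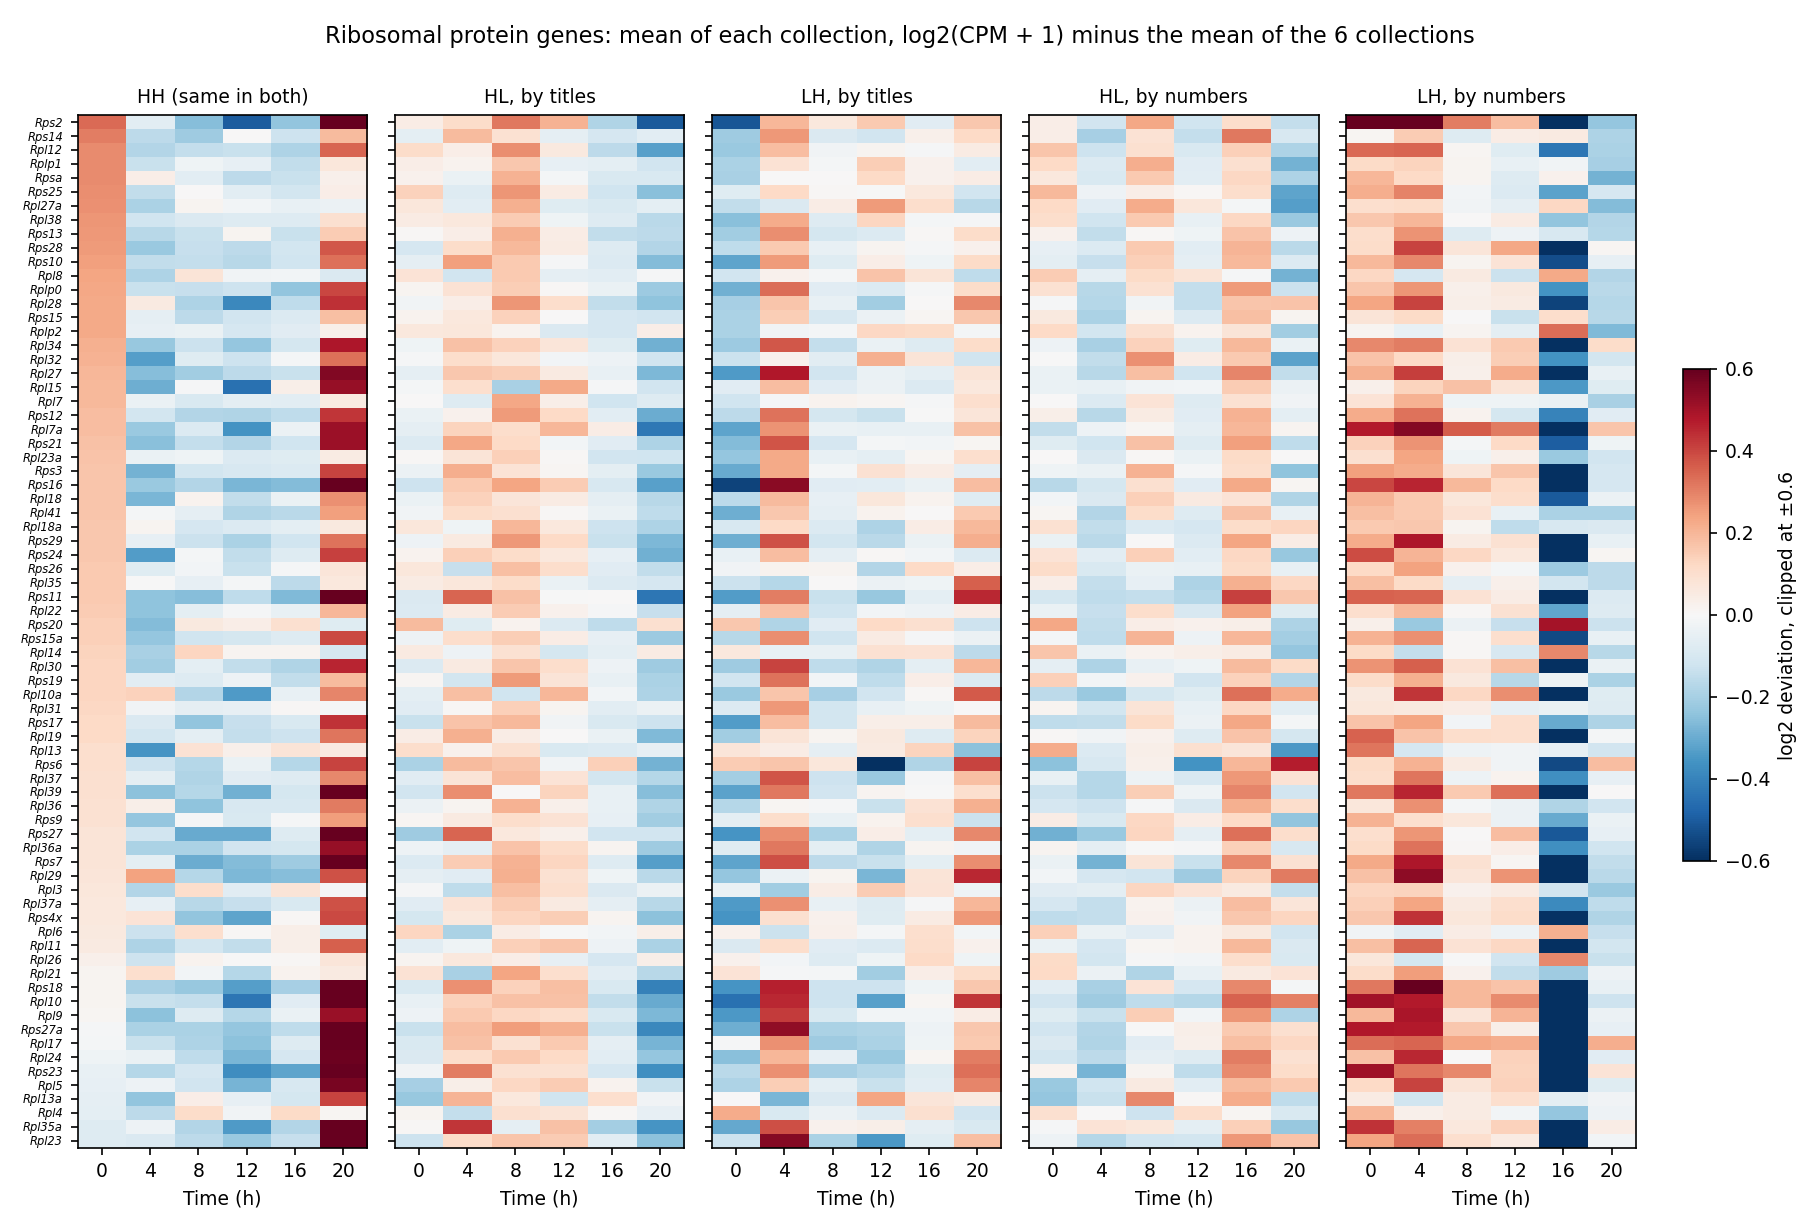
Mean of each collection for 74 members (rows, sorted by HH at 0 h) as log2(CPM + 1) minus the mean of the 6 collections, red above and blue below, clipped at ±0.6. Panels are HH, then HL and LH by titles and by library numbers, with time in h, and LH by numbers at 16 h is 1 library. HH is red at 0 h for most members and darkest at 20 h, where 1 library has a share of 8.21%, and HL and LH change their form between the assignments.

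The course over the collections was also compared between treatments, as the interaction of treatment and collection. By titles edgeR called no member after adjustment, against 0.128% of all genes, 30 (39.5%) at an unadjusted 0.05, against 11.6%, and 5 at 0.01, against 3.41%. Without the libraries that stood apart it called 2 after adjustment, against 6.2% of all genes, 14 (18.4%) at 0.05, against 22.7%, and 3 (3.95%) at 0.01, against 10.6%. With the covariate it called 0 after adjustment, 23 (30.3%) at 0.05, against 11.9%, and 5 (6.58%) at 0.01, against 3.81%. With all libraries and no covariate Rpl23 (adjusted p = 0.192), Rps18 (0.27), a protein of the head of the small subunit, and Rps24 (0.279) had the smallest values, and DESeq2 called 1 member (1.32%), against 1.63% of all genes. Rps18 had 323, 351, 354 and 374 CPM in HH at 0 h, 177 to 465 CPM at 4 to 16 h and 321, 778, 1302 and 254.3 CPM at 20 h. By library numbers edgeR called 0 members and 0% of all genes after adjustment, 38 members at an unadjusted 0.05, against 5.98%, and 21 at 0.01, against 1.49%. With the covariate the numbers gave 13 (17.1%) at 0.05, against 4.31% of all genes, and 2 (2.63%) at 0.01, against 0.879%.

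The study looked for circadian genes with JTK_CYCLE, a rank test for curves of 24 h, at an unadjusted 0.01. A figure legend of the study also names a minimum amplitude, which was not required here. By titles JTK_CYCLE called 2 members in HL, 1 in LH and 1 in HH, against 0.466%, 0.933% and 1.22% of all genes. As percentages of 76 the counts were near the background in LH and HH. At an unadjusted 0.05 it called 17 members in HL (22.4%), 1 in LH (1.32%) and 8 in HH (10.5%), against 2.68%, 3.83% and 4.71% of all genes. Without the libraries that stood apart JTK_CYCLE at 0.01 gave 2, 1 and 1 as well, against 0.469%, 1.23% and 1.05% of all genes. A cosinor (a fitted cosine of 24 h) in edgeR at an unadjusted 0.01 called 0 in HL, 1 in LH and 33 in HH (43.4%), against 1.12%, 3.27% and 2.87% of all genes. Without those libraries it called 0, 3 and 2, against 1.6%, 4.77% and 1.84%. None of the JTK_CYCLE calls by titles passed after adjustment, its smallest adjusted P being 1 for HL, 0.926 for LH and 0.533 for HH. The cosinor was not adjusted.

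Of the 2 in HL, Rps12, a protein of the small subunit, had 1680, 1932 and 2214 CPM at 0 h, 2307, 2311 and 2548 CPM at 8 h and 1736, 1378, 1936 and 1445 CPM at 20 h, with a fitted peak at 8 h (JTK_CYCLE P = 0.00211, n = 21). Its libraries of 8 h and 20 h did not overlap.

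In LH it was Rpl27a, a protein of the large subunit near the peptidyl transferase centre, with 286, 372 and 416 CPM at 0 h, 480, 548, 397 and 476 CPM at 12 h and 416, 347, 363 and 290.6 CPM at 20 h (P = 0.00648, n = 22, peak at 12 h). The libraries of 0 h and 12 h overlapped. In HH it was Rps28, whose values stand above (P = 0.00217, n = 19, peak at 22 h). Its peak falls between the highest collections, 20 h and 0 h, and without the library with a share of 8.21% its P was 0.00405 (JTK_CYCLE, n = 18).

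By library numbers JTK_CYCLE called Rpl3 in HL (P = 0.00157, n = 19) and 5 members in LH, against 1.03% and 1.31% of all genes, and again Rps28 in HH, against 1.23%. The 5 of LH were Rps7 (P = 0.00171, n = 19), Rps2, Rpl12, Rps18 and Rps25, all with a fitted peak at 4 h. At 0.05 the numbers gave 3 members in HL, 14 in LH and 8 in HH, against 4.3%, 4.47% and 4.74% of all genes. None of the calls of HL and LH at 0.01 was shared between the assignments. The best-fitting phase, whether or not it passed, was 4 h for 53 of 76 members in LH by numbers, against 21.3% of all genes, but spread over 12 to 20 h by titles. In HH 40 members fitted best at 22 h and 19 at 0 h, against 6.56% and 12.2% of all genes, and without the library of 8.21% it was 33 and 29, against 6.48% and 12.6%. In HL it was 8 h for 33 and 6 h for 23 by titles, against 17.95% and 9.56% of all genes, and 16 h for 27 by numbers, against 7.13%.

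Mean levels over all collections were then compared between treatments, with collection as a term and the thresholds of the study, an unadjusted 0.01 over the treatments and 0.05 for the pair. By titles 4 members were lower in LH than in HL and the same 4 were lower in HH than in HL, among them Rpl13, Rpl14 and Rpl26 of the large subunit, against 0.73% and 0.745% of all genes. The 2 comparisons share the HL libraries. No member was higher in LH or in HH than in HL (0.429% and 0.459% of all genes), and between LH and HH 0 were called, with 1 lower and 0 higher at an unadjusted 0.05 and 0 in DESeq2 (background 0.481% lower and 0.429% higher). None of the calls passed an adjustment over all genes.

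Rpl13 had a lowest, median and highest level of 1146, 1438 and 2246 CPM in HL, 1062, 1391 and 1773 CPM in LH and 940, 1404 and 1678 CPM in HH. The treatments overlapped over most of their range. The log2 difference was -0.17 ± 0.07 for LH minus HL and -0.22 ± 0.07 for HH minus HL (SE, adjusted p = 0.676 and 0.451, edgeR). Reads of Rpl13 may also belong to Gm20388, which overlaps its 3′ end on the same strand.

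Rpl14 had 901, 1144 and 1451 CPM in HL, 842, 1055 and 1247 CPM in LH and 780, 1126 and 1300 CPM in HH. Its median in HH was close to that in HL. The log2 differences were -0.18 ± 0.06 and -0.19 ± 0.07 (SE, edgeR adjusted p = 0.542 and 0.51).

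Rpl26, which lies at the exit of the tunnel and binds p53 mRNA, had 893, 1051 and 1369 CPM in HL, 876, 983 and 1246 CPM in LH and 743, 1010 and 1136 CPM in HH. All 3 values of LH and of HH lay below those of HL. The log2 differences were -0.17 ± 0.06 and -0.23 ± 0.07 (SE, edgeR adjusted p = 0.676 and 0.364). All 3 genes belong to the members that follow the others weakly, with correlations of 0.171 (Rpl13), 0.0097 (Rpl14) and 0.352 (Rpl26), and coefficients of variation of 15.3%, 13.0% and 11.5%.

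With library numbers the direction turned. Since the numbers name most HL libraries of the titles LH and most LH libraries HL, this turn was largely set in advance. LH was then above HL by 0.15 for Rpl13 and 0.14 for Rpl26, which passed the thresholds, and by 0.14 for Rpl14, which did not. No member was lower in LH than in HL (background 0.386% lower and 0.955% higher). Rpl13 and Rpl26 were also above HH in LH, by 0.20 and 0.21, with 2 members higher against 1.17% of all genes and 0 lower against 0.455%. Between HH and HL no member was called by edgeR (background 0.349% lower and 0.22% higher), and 0 passed an unadjusted 0.05 for the pair. That HL exceeds LH in these 3 genes therefore holds for the titles alone.

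The members as a whole differed by small shifts whose sign depended on the assignment and the fit. By titles the median log2 difference of LH and HL was -0.06 with 60 of 76 members below 0, against 0.00 and 49.7% for all genes. For HH minus HL it was -0.02 with 44 below 0, and for LH minus HH -0.04 with 55 below 0. Without the libraries that stood apart the medians by titles were -0.08 (70 below 0), -0.08 (58) and 0.00 (38). By numbers the medians were 0.01 (33 below 0), 0.03 (27) and -0.02 (43). With the short-minus-long covariate the medians by titles were 0.01, 0.04 and -0.04, so the sign of the first 2 turned. By numbers with the covariate they were 0.07 (10 below 0), 0.07 (11) and 0.00 (39). The 40S and the 60S genes had like medians of LH minus HL, -0.06 and -0.05 by titles and 0.00 and 0.01 by numbers.

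**Figure D5:**
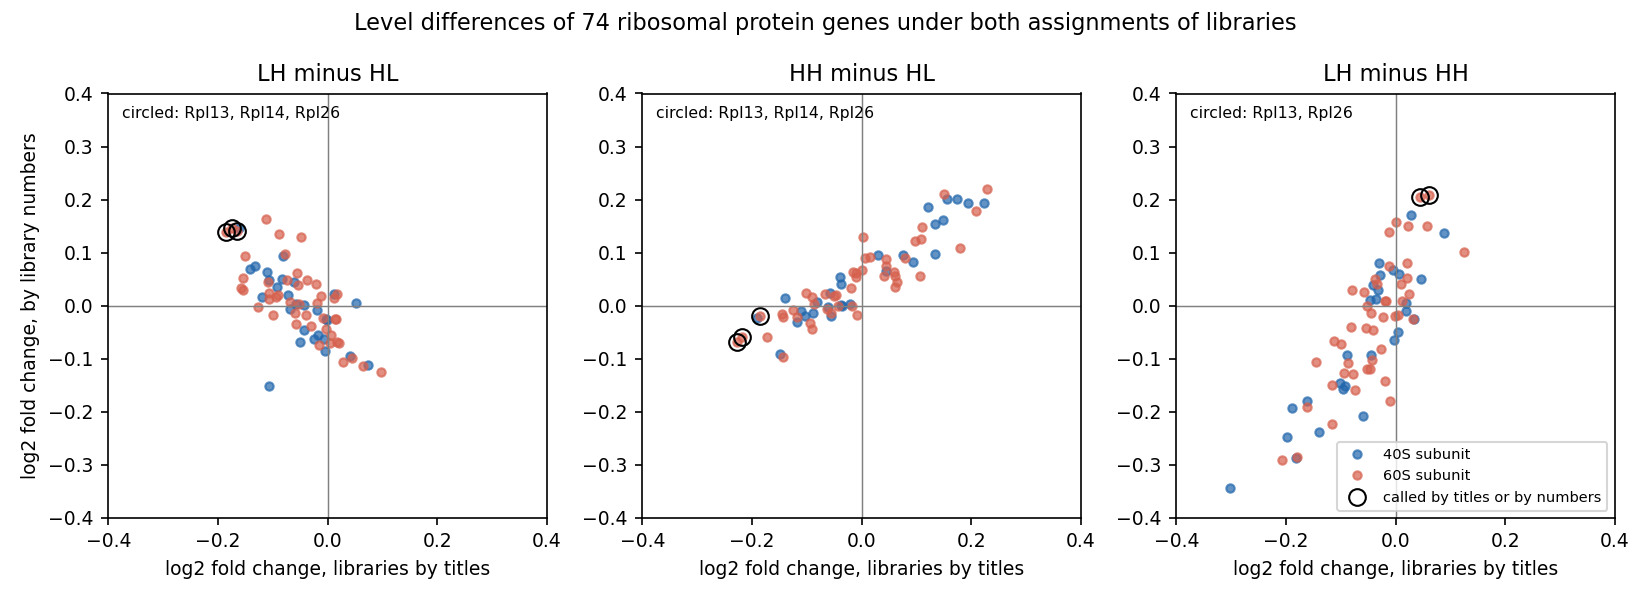
Log2 difference in level of 74 members between treatments, by titles (horizontal axis) and by library numbers (vertical axis), for LH minus HL, HH minus HL and LH minus HH. Blue is the 40S and red the 60S subunit, and circles mark members past both thresholds under either assignment, which are named in each panel. For LH minus HL the circled genes Rpl13, Rpl14 and Rpl26 lie below 0 by titles and above 0 by numbers. The numbers name most HL libraries of the titles LH and most LH libraries HL.

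Genes around the ribosome gave a few calls. Of the 3 other ribosomal proteins, among them Fau and Rps3a1 at means of 522 and 67.5 CPM, 0 were called in any test by edgeR or JTK_CYCLE under either assignment. Of the 5 -like genes tested, of 9 listed, 0 were called in level, and Rpl36al and Rpl22l1 passed an unadjusted 0.01 over the HH collections under both assignments, against 2.92% of all genes by titles and 3.8% by numbers. Of 18 other mRNAs with a pyrimidine tract 0 were called in level, and Tpt1 and Naca passed that 0.01 in HH by titles, with Rack1 and Pabpc1 added by numbers, against the same 2 backgrounds. Over the LH collections Eef1a1 passed it by titles, and Eef1a1 and Eef2 by numbers, against 7.31% and 5.26% of all genes.

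Of the 52 ribosome biogenesis genes 1 was higher in LH than in HL by titles, the RNA helicase Ddx10, by 0.25 ± 0.08 on the log2 scale (SE, edgeR adjusted p = 0.542), and 1 was lower, the H/ACA snoRNP protein Nhp2, by -0.23 ± 0.10 (adjusted p = 0.826), against 0.429% of all genes higher and 0.73% lower, whereas by numbers 0 were called between LH and HL. Ddx10 was also higher in LH than in HH by titles. Nhp2 was lower in HH than in HL, by titles at -0.39 ± 0.11 (adjusted p = 0.345), and by numbers, where it was also higher in LH than in HH by 0.33 ± 0.10 (adjusted p = 0.262). Over the LH collections by titles Rrp9, Utp4 and Ddx10 were called after adjustment (edgeR, 0.0178, 0.0181 and 0.0312), against 2.93% of all genes, whereas by numbers 0 of the 52 were.

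Of 31 initiation and elongation factors Eif3l and Eif3k, subunits of the eIF3 complex on the 40S subunit, were lower in LH than in HL by titles, by -0.20 ± 0.06 and -0.17 ± 0.06 on the log2 scale (SE, edgeR adjusted p = 0.472 and 0.559), and in HH than in HL by -0.19 ± 0.06 and -0.16 ± 0.06. Over all genes 0.73% and 0.745% were called lower in these comparisons. By numbers neither was called and Eif4a2 was lower in LH and in HH than in HL. Over the collections by titles edgeR called Eif4a2 in HL (adjusted p = 0.00259) and Eif3j1 in LH (0.00793), and both in the interaction (0.0464 and 0.0361). The shares called over all genes were 0.301% in HL, 2.93% in LH and 0.128% in the interaction. By numbers 0 of the 31 were called in these tests. Of 15 genes of growth signalling to ribosomal protein mRNAs 0 were called in level under either assignment. Larp1, the protein that binds the pyrimidine tract, passed 0.01 in JTK_CYCLE in LH by titles (P = 0.00357, 0.905 after adjustment, n = 22), against 0.933% of all genes. By numbers 0 of the 15 passed. Over the LH collections edgeR called 0 of the 15 by titles and Tbpl1 by numbers (adjusted p = 0.0141), against 2.93% and 1.05% of all genes. Fibroblast markers gave 0 of 10 calls in level, and markers of other cell types 0 of 9 by titles and Pecam1 of 8, higher in LH than in HH, by numbers. Over the collections edgeR called Ptprc, a marker of white blood cells at a mean of 2.51 CPM, in LH by titles (adjusted p = 0.00773, but 0.401 without the libraries that stood apart, 1 of which had its highest level, 76.3 CPM) and the collagen gene Col3a1 in LH by numbers (0.0388), and Col1a1 passed an unadjusted 0.01 in HL, LH and HH under both assignments. By titles 2 of the 10 fibroblast markers passed it in HL (Col1a1 and Col3a1), 4 in LH (Col1a1, Col3a1, Pdgfra and Col1a2) and 1 in HH, against 2.78%, 7.31% and 2.92% of all genes, and by numbers 2 in HL, 2 in LH and 1 in HH, against 1.88%, 5.26% and 3.8%.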

How the data were processed

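Per the labels and the submitters' processing notes, the authors had single-end 3′DGE reads of fibroblast RNA converted with bcl2fastq, aligned to mm10 with STAR 2.6.0a, and uniquely aligned reads counted by gene with HTSeq 0.9.1. The deposited files hold these counts, not normalized, as 121 sets. Whether counting used strand, and with which annotation, is not given in the sources used here. Lines that name no gene (a median of 22.1% of uniquely aligned reads on no feature and 0.386% ambiguous) were left out. Runs were summed to 62 libraries (59 with 2 runs, 3 with 1), with 104912 to 11619095 counts, so that Rps6, the lowest member, had a mean of 95.8 counts in a library and 3 in the shallowest. Groups came from titles, and from library numbers as an alternative.

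Genes with at least 1 CPM in 3 libraries were tested with edgeR 4.0.16 (limma 3.58.1, R 4.3.3) by the quasi-likelihood test, with TMM scaling, all treatments in 1 model and Benjamini-Hochberg adjustment over all genes. Levels had collection as a term. JTK_CYCLE was rewritten, with a period of 24 h and phases in steps of 2 h. Correlations used 100000 permutations and log2(CPM + 1). DESeq2 1.42.0, Python 3.11.15, NumPy 2.4.6, pandas 2.3.3 and SciPy 1.17.1 were also used. Positions and lengths are from GENCODE M21 (GRCm38).

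On simulated counts for 13292 genes with 200 changed, the level test of LH against HL found 160, 92 of 92 at 16 CPM or more, the HH collections test 93, and JTK_CYCLE 151, 152 and 143 in HL, LH and HH. Genes called that had not been changed numbered 86, 3, and 54, 54 and 45. The changes put into the simulation were larger than most differences of the members described above. These counts therefore do not show how often shifts as small as theirs would be found.

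Members and lists were chosen with earlier results of these data known. Genes named are those past thresholds in levels or JTK_CYCLE (at most 10 and 5), the 3 smallest P over collections and in the interaction, the 5 highest and 5 lowest levels, the 3 highest and 3 lowest correlations, 10 by role, and at most 3 called per list. Others were named after their values were seen. A few genes that this rule or a list names are counted but not reported one by one here.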

Additional observations from a re-analysis of the deposited data

Results flagged for a closer look

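In 63 groups of 4 libraries, for the members' share of counts and the levels of Rpl13, Rpl14, Rpl26, Rpl23, Rps18 and Rps23, 4 values lay far from the other 3 libraries of their collection by Dixon's criterion, where chance gives about 1 in 20 groups. The share was 5.42% in LH collection 3, replicate 4 (others 4.74% to 4.81%), 6.10% in LH collection 4, replicate 2 (others 4.76% to 4.91%) and 6.56% in LH collection 6, replicate 1 (others 4.69% to 4.79%), all by titles. By numbers the last of these is HL collection 5, replicate 4. Rpl14 had 1433 CPM in HL collection 6, replicate 4 (others 1120 to 1144). The library of HH with a share of 8.21% was not among them, since a second library of its collection was also high.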

How the results depend on the processing

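The 4 members lower in LH than in HL became 2 higher by library numbers, 4 higher by numbers without the libraries that stood apart and 6 higher by numbers with the length covariate (0.955%, 0.964% and 1.2% of all genes higher). They were 1 with the second run alone (0.539% of all genes lower), with library totals (0.339%) and with totals without members (0.339%). They were 2 without the filter (1.06%) and 0 after adjustment, and 0 to 5 without 1 replicate. By these 3 fits on numbers Rpl13 was at 0.15, 0.15 and 0.15 on the log2 scale, Rpl14 at 0.14, 0.14 and 0.13 and Rpl26 at 0.14, 0.14 and 0.15. The 4 lower in HH than in HL became 0 by numbers (0.349% of all genes lower), with the second run (0.449%) and after adjustment. They became 1 with either total (0.301% and 0.286%) and by numbers without the libraries apart (0.562%). Without the filter they were 2 (1.12%), and by titles without the libraries apart 5 (109 of 13216 genes). By numbers with the covariate 1 was higher (0.386% of all genes higher). The range without 1 replicate was 0 to 5. For LH against HH the 0 became 2 by numbers, 1 without the libraries apart, 5 higher by numbers without them (1.19% of all genes) and 7 by numbers with the covariate, 6 of them higher (1.83%) (0 to 1 without 1 replicate). Without 1 replicate the members' median ran from -0.09 to -0.03 for LH minus HL, -0.07 to 0.05 for HH minus HL and -0.09 to 0.02 for LH minus HH.

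Of the rhythmic members, the 2 of HL became 1 by numbers, 4 (0.395%) and 1 with either run alone, 1 with RLE and 0 with TMM scaling, 0 by cosinor with or without the libraries apart, 0 after adjustment and 17 at 0.05 (0 to 5 without 1 replicate). The 1 of LH became 5 by numbers 3 by cosinor without the libraries apart and 0 with the first run, RLE, TMM, totals without members and adjustment (0 to 2). The 1 of HH became 3 and 2 with either run (1.05% and 1.04%), 2 with RLE and TMM, 33 by cosinor (2.87% of all genes) and 2 by cosinor without the libraries apart, 0 after adjustment and 8 at 0.05 (0 to 1). By numbers HL and LH hold none of the libraries apart, so leaving these out cannot change the 1 and 5.

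Over the collections, the 0 of HL became 1 without the filter, by numbers without the libraries apart and by numbers with the covariate (0 to 0 without 1 replicate). The 0 of LH became 3 with the second run (7.11% of all genes) and at an unadjusted 0.01, 2 without the shallow library or the libraries apart, 1 with RLE or a 5 CPM filter, 14 without the filter (6.05%) or with the covariate (4.91%), 6 by numbers with the covariate (1.81%) and 4 in DESeq2 (5.8%) (0 to 1). The 2 of HH became 8 by numbers, 0 with the first run, either total or without the libraries apart under either assignment, 6 with the second run (0.352%), 33 without the filter (2.4%), 1 with the covariate under either assignment, 12 in DESeq2 (1.19%) and 25 at an unadjusted 0.01. They became 0 without HH replicates 1, 2 or 3 (0.0303% to 0.0528% of all genes). They were also 0 without HL replicates 1 or 2 or LH replicate 3 (0.182% to 0.265%), and 14 without HH replicate 4 (0.317%). The 0 of the interaction became 29 without the filter (5.19%), 2 without the libraries apart (6.2%), 1 in DESeq2 (1.63%) and 5 at an unadjusted 0.01 (0 to 1). Except where an alternative uses fewer libraries or genes, the cause was not tested.

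With the replicate number as a block the calls over collections were 1 in LH and 0 in HH and the level calls 3 in both comparisons with HL, and no other count changed. Deviations of same-numbered libraries did not correlate (median 0.0018 over 53 pairs, 3 over 0.1, against 0.0048 over 159 other pairs, 18 over 0.1), so they share only a number. At 104912 counts the shallowest library does not resolve the lowest members.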
